A study of Mus musculus with 6 samples.

Results

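Mpo, Elane and Ltf, genes of proteins that neutrophils store in their granules, were taken as 3 named genes from the 750 genes counted in CD4 T cells of mouse liver. RNA was counted on the nCounter platform, in which a barcoded probe hybridises to each RNA and the barcodes are counted without amplification. The FFC group held 3 libraries described as MASH, and the Chow group held 3 libraries described as control; the series calls them biological replicates. MASH usually abbreviates metabolic dysfunction-associated steatohepatitis and FFC a diet enriched in fructose, fat and cholesterol, although neither is written out in the labels. Strain, age, time on the diet and the way the cells were sorted are not stated in the labels.

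Neutrophils make their granules in the bone marrow, in a fixed order. Mpo, myeloperoxidase, which makes hypochlorous acid from hydrogen peroxide and chloride, and Elane, the serine protease neutrophil elastase, are transcribed in promyelocytes and packed into primary granules. Ltf, lactoferrin, which binds iron, is transcribed later and packed into secondary granules. A neutrophil that has left the marrow carries the proteins but little of these mRNAs, while it is rich in mRNA of S100a8 and S100a9. All 3 proteins are also known as autoantigens, and CD4 T cells are not a usual source of these transcripts.

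Since the 3 genes moved together in these libraries, the 250 bases before each RefSeq start are shown (build GRCm38.p6, plus strand). Capitals mark matches, on either strand, to the letters of motifs of factors known from myeloid cells: TTGCNNAA (C/EBP), GAGGAA (PU.1), TGTGGT (RUNX) and AACNG (MYB). The windows are chr11:87793534-87793783 for Mpo, chr10:79886062-79886311 for Elane and chr9:111019042-111019291 for Ltf.
Mpo: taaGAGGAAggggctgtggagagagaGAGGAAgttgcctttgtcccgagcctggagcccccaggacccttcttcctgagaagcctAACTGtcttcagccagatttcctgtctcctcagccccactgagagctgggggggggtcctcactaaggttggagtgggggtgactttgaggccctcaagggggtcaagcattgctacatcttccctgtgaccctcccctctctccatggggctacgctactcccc
Elane: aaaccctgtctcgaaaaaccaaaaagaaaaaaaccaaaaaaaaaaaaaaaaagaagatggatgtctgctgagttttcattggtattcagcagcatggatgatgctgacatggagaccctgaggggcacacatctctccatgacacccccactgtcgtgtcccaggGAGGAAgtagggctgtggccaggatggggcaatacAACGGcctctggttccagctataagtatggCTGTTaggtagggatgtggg
Ltf: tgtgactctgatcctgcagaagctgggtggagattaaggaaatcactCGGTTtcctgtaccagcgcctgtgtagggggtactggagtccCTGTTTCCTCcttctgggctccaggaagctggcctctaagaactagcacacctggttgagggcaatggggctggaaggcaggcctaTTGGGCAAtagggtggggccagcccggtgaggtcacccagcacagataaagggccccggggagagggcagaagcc
The PU.1 letters stood in all 3 windows, 224 and 247 bases before the start in Mpo, 85 in Elane and 157 in Ltf, and 23.3% of 32851 mouse windows of this length held them. C/EBP letters stood only in the Ltf window, 75 bases before the start (9.56% of windows), and the RUNX letters in none of the 3 (14.0%). The MYB letters, found in 74.2% of windows, stood in each; in Ltf the match at 161 bases overlaps the PU.1 match by 1 base. These are matches of letters, and binding was not measured.

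The 6 libraries held 623212 to 693640 counts in FFC and 726836 to 900322 in Chow, recovered from the deposited log2 values, which are whole counts times 1 scale factor per library. Every FFC factor (1.11 to 1.26) was above every Chow factor (0.707 to 1.10). T cell genes were abundant throughout. Cd3e, a chain of the T cell receptor complex, had 1954, 2030 and 1547 counts in FFC and 2168, 2163 and 1838 in Chow, and Cd4 had 1134, 1294 and 1454 in FFC and 1268, 1050 and 853 in Chow. Over all 748 tested genes the median difference between FFC and Chow was 0.43 on the deposited log2 scale. Differences of single genes on that scale include this shift, while those under other scalings or between genes of a library do not.

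Mpo was higher in FFC. It had 232, 271 and 203 counts in FFC libraries 1 to 3, against 124, 149 and 149 in Chow libraries 1 to 3. The groups did not overlap, with FFC 3 lowest of the FFC libraries and Chow 1 lowest of all. On the deposited log2 scale the level was 8.11 ± 0.30 in FFC and 6.89 ± 0.41 in Chow (SD, n = 3 each). The difference was 1.22 ± 0.28 (SE; 95% interval 0.58 to 1.87), or 2.34-fold, with a Benjamini-Hochberg adjusted p of 0.031 in limma's moderated test over all tested genes. Of the 748 genes 17.4% passed as higher in FFC and 0.936% as lower, and 34.4% lay apart as higher on this scale. In bulk RNA, more cells of a type and more RNA per cell cannot be told apart.

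Elane followed the same order of groups at a lower count. It had 144, 151 and 121 counts in FFC, against 103, 88 and 87 in Chow, and the lowest FFC library stood above the highest Chow library. The log2 level was 7.35 ± 0.26 in FFC and 6.29 ± 0.31 in Chow (SD, n = 3 each). The difference of 1.07 ± 0.25 (SE), or 2.09-fold, passed in limma (adjusted p = 0.032).

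Ltf had the fewest counts of the 3, and its groups were apart as well. It had 94, 121 and 89 counts in FFC, against 73, 76 and 53 in Chow. The log2 level was 6.89 ± 0.33 in FFC and 5.81 ± 0.06 in Chow (SD, n = 3 each), where the counting error alone was 0.14 and 0.18. The SD of the Chow values was thus below their counting error. The difference was 1.08 ± 0.23 (SE), or 2.12-fold (limma adjusted p = 0.030). The exact Poisson 95% interval, which covers counting error only, was 71.5 to 109.5 for the 89 counts of FFC 3 and 59.9 to 95.1 for the 76 counts of Chow 2, and these intervals overlapped.

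Part of each difference came with the scale factors. Without them the log2 difference of the counts was 0.74 ± 0.17 for Mpo, 0.58 ± 0.16 for Elane and 0.59 ± 0.21 for Ltf (SE), and in limma Mpo passed (adjusted p = 0.042) while Elane (adjusted p = 0.054) and Ltf (adjusted p = 0.086) did not, with 6.15% of tested genes passing as higher. The groups stayed apart on these counts for all 3, as they did in the same direction for 20.3% of tested genes. The median difference of all genes was then -0.06.

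The 3 granule genes differed between the diets by about as much as genes whose work lies in other organs. Tg, the thyroid hormone precursor thyroglobulin, had 157, 171 and 167 counts in FFC and 119, 103 and 113 in Chow, and its log2 difference was 1.05 (limma adjusted p = 0.034). All 3 FFC libraries stood above all 3 Chow libraries. For the water channel Aqp4 the difference was 1.00 (limma adjusted p = 0.046), and for the insulin gene Ins2 it was 0.94 (adjusted p = 0.055). Of the 4 measured genes of the list of other organs, which holds these, 3 passed as higher, with a median of 1.03, and all 4 had groups apart. Over all 748 tested genes 17.4% passed as higher, and 34.4% had groups apart as higher. Among genes with a mean count within 1.5-fold of that of a granule gene, 28.1% to 35.9% passed as higher.

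**Figure D1:**
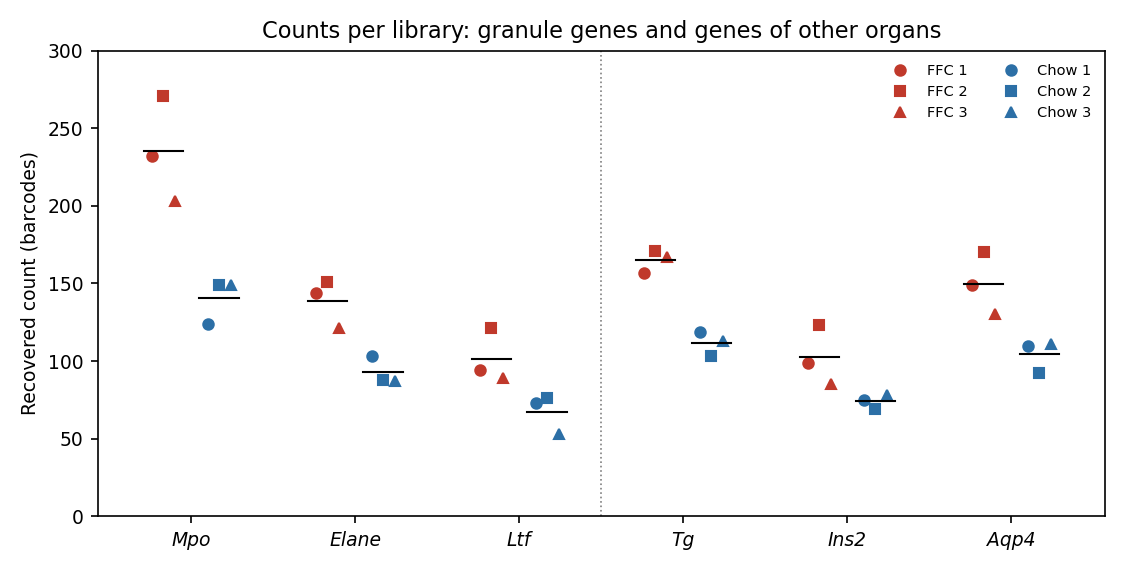
Recovered counts (vertical axis, barcodes) of Mpo, Elane and Ltf and of Tg, Ins2 and Aqp4, used chiefly in other organs, in 3 FFC libraries (red, left of each pair) and 3 Chow libraries (blue, right), with black lines at the group means. For each of the 6 genes all FFC libraries lie above all Chow libraries, Elane lies within the range of the genes of other organs, and Ltf near or below its lower end.

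Set against these 4 genes within each library, which removes the scale factor, little of the difference was left. Mpo stood above all 4 of them in each of the 6 libraries, at 1.57 to 1.73 times their mean count in FFC, against 1.71 and 1.55 times in Chow 2 and 3 and 124 counts beside a mean of 99.5 in Chow 1. Its log2 value minus theirs was 0.81, 0.79 and 0.69 in FFC, against 0.34, 0.79 and 0.65 in Chow. The mean difference between the groups was 0.17 (exact permutation test, two-sided p = 0.2, adjusted over the 3 genes 0.6, where 3 against 3 cannot go below 0.1). Chow 1 was the low value, and without it the difference was 0.04.

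Elane tracked these genes closely. Relative to them it stood at 0.12, -0.05 and -0.05 in FFC and at 0.07, 0.03 and -0.12 in Chow, a difference of 0.01 (exact permutation p = 1). Ltf lay below their mean in every library, at -0.49, -0.37 and -0.49 in FFC and -0.43, -0.18 and -0.84 in Chow, a difference of 0.03 (exact permutation p = 0.9). For both genes the groups overlapped on this relative scale, and with 1 library left out the difference of Ltf ran from -0.15 (without Chow 3) to 0.18 (without Chow 2). Counts of different probes are compared here as counts and do not rank the genes by RNA amount.

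**Figure D2:**
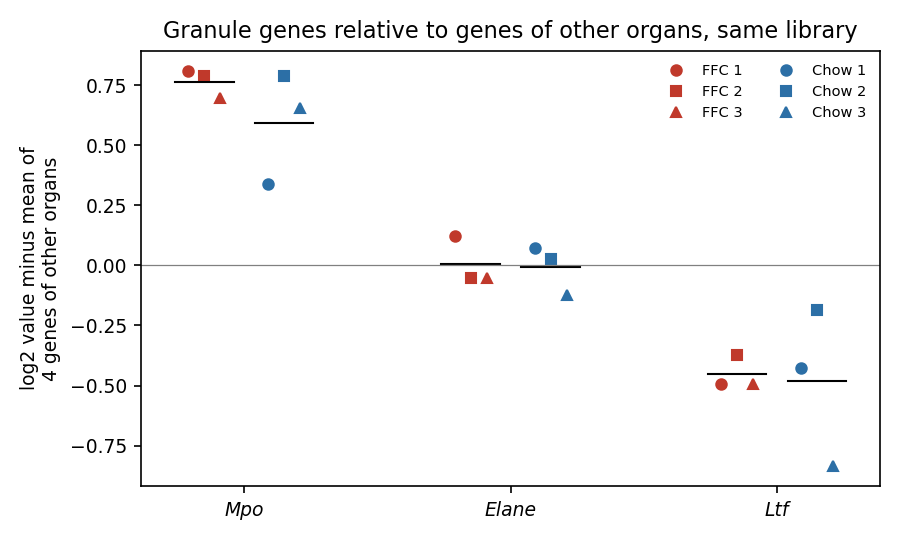
Deposited log2 value of each granule gene minus the mean log2 value of the 4 genes of other organs in the same library (vertical axis), for 3 FFC libraries (red, left) and 3 Chow libraries (blue, right), with lines at the group means. The group means differ by 0.17 for Mpo, 0.01 for Elane and 0.03 for Ltf.

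The granule genes also did not differ detectably from each other in how far they moved. The within-library log2 value of Mpo minus Elane was 0.76 ± 0.08 in FFC and 0.60 ± 0.29 in Chow (SD, n = 3 each), a difference of 0.16 (exact permutation p = 0.7). For Mpo minus Ltf the difference was 0.14 (exact permutation p = 0.5) and for Elane minus Ltf -0.02 (exact permutation p = 1). Adjusted over the 3 pairs each p was 1.

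Genes of a similar level gave a wider frame. Of 178 tested genes whose mean count over the 6 libraries lay within 1.5-fold of that of Mpo (188), 50 or 28.1% passed as higher in FFC, their median difference was 0.72, and 16 had a larger difference than Mpo. Around Elane (mean count 116) 49 of 143 genes or 34.3% passed as higher, the median was 0.85, and 23 differed more than Elane. Around Ltf (84.3) the numbers were 37 of 103 or 35.9%, 0.85 and 16. So each granule gene lay in the upper part of its level range, where 28.1% to 35.9% of the genes passed. In limma 0 of these neighbours passed as lower; voom on the recovered counts called 4, 2 and 2 lower in the 3 ranges (5.61% of all tested genes), and 1 in each was lower at an unadjusted p of 0.05.

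The nearest genes by mean count show the same range. Beside Mpo stood Nlrp3 and Cd70 below and Cd22 above, beside Elane stood Pparg and C7 below and Cd44 above, and beside Ltf stood Cx3cl1 and Alox5 below and Cd276 and Cd96 above. Cd22, a B cell receptor, differed by 0.31 (adjusted p = 0.47), while Cd44, an adhesion receptor of activated T cells, differed by 1.03 (limma adjusted p = 0.043). Relative to the mean log2 value of all genes in its level range, Mpo was 0.53 higher in FFC than in Chow, Elane 0.31 and Ltf 0.28, each at the smallest p this exact permutation test allows (0.1).

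**Figure D3:**
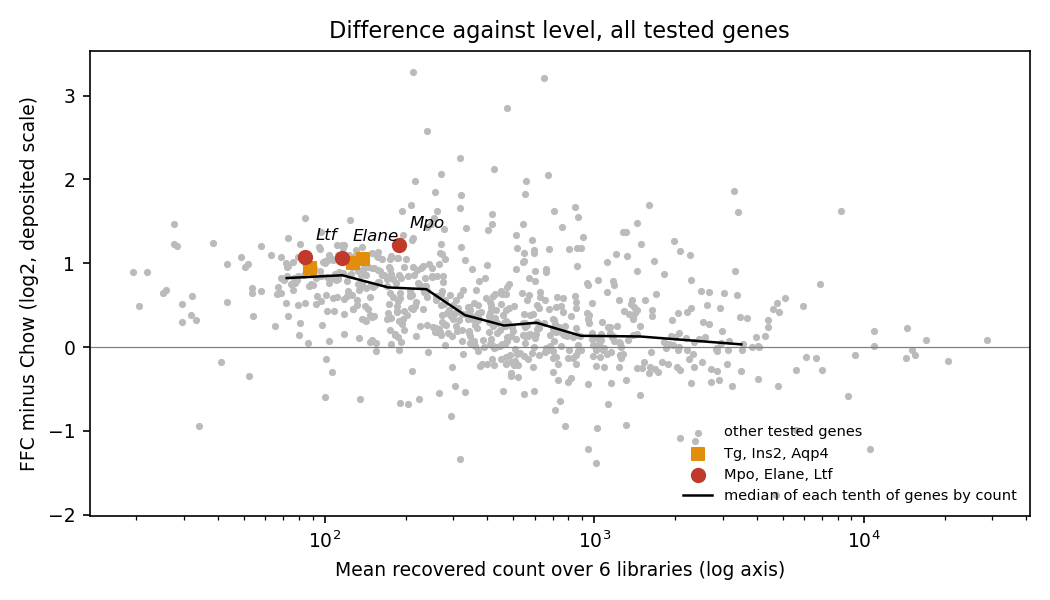
FFC minus Chow on the deposited log2 scale (vertical axis) against the mean recovered count over 6 libraries (log axis) for the tested genes, with the granule genes in red, Tg, Ins2 and Aqp4 in orange and the medians of 10 equal groups of genes as a line. The line lies highest at the low counts where Ltf and Elane stand, below all 6 marked genes, and close to 0 at the highest counts.

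Under scalings that adjust for level Mpo passed, and Elane and Ltf did not. Under quantile normalization Mpo differed by 0.54 ± 0.12 (SE; limma adjusted p = 0.044), whereas Elane differed by 0.28 (95% interval -0.04 to 0.61, adjusted p = 0.24) and Ltf by 0.33 (-0.12 to 0.77, adjusted p = 0.30). Cyclic loess gave 0.55 (adjusted p = 0.046), 0.27 (adjusted p = 0.24) and 0.28 (adjusted p = 0.35). Under quantile normalization 4.01% of tested genes passed as higher, and under cyclic loess 4.68%. Tg, with 0.32 under quantile normalization (limma adjusted p = 0.23), did not pass there, and that Mpo passed and Tg did not is no test between them. Centring each library on its median kept all 3 granule genes above the threshold, at 0.84, 0.68 and 0.70 (adjusted p = 0.017, 0.023 and 0.028), with 14.4% of genes passing as higher.

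**Figure D4:**
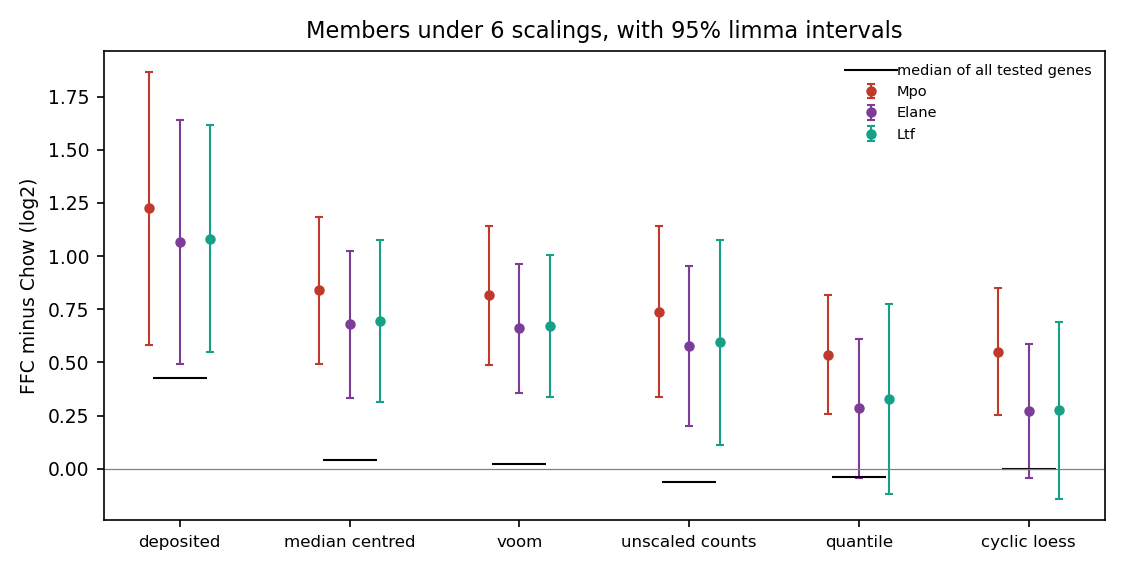
FFC minus Chow (log2, vertical axis) of Mpo, Elane and Ltf under 6 scalings, with 95% limma intervals and a black bar at the median of all tested genes. Every estimate lies above 0 and above that median, and the intervals of Elane and Ltf reach below 0 under quantile normalization and cyclic loess.

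Whether the granule genes passed depended on which library was left out, as it did for the tested genes at large. Without Chow 3 the difference was 1.46 for Mpo, 1.21 for Elane and 1.11 for Ltf, and without FFC 3 it was 1.37, 1.21 and 1.21, and all 3 passed in limma in both fits, with 290 and 234 of 748 genes called. Without any of the other 4 libraries none of the 3 passed, with adjusted p from 0.12 to 0.14 and differences from 0.90 to 1.23. In those fits 1 gene of 748 passed without FFC 1, 1 without FFC 2, 7 without Chow 1 and 2 without Chow 2.

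Of the other neutrophil genes measured, several of receptors and surface proteins passed as higher in FFC, while the calgranulin genes were not called. The 3 neutrophil lists held 18 measured genes, of which 10 passed as higher in limma, the 3 granule genes among them, with a median difference of 1.06 against 0.43 over all tested genes. As higher passed 17.4% of all tested genes, and 28.1% to 35.9% of those in the level ranges of the granule genes. In limma 0 of the 18 passed as lower, 1 was lower at an unadjusted p of 0.05, and voom called 0 lower. By list, both measured primary granule genes passed (Mpo and Elane), as did 2 of 5 secondary and tertiary granule genes (Ltf and the gelatinase gene Mmp9) and 7 of 13 genes of mature neutrophils, Mmp9 again among them.

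S100a8 and S100a9 encode the calcium-binding proteins that fill the cytosol of mature neutrophils. S100a9 had 25, 56 and 16 counts in FFC, against 22, 53 and 76 in Chow, below the mean of the genes of other organs in every library, and its difference was -0.17 (limma adjusted p = 0.88). S100a8 had 305, 399 and 275 counts in FFC, against 193, 301 and 438 in Chow, with a difference of 0.62 (adjusted p = 0.32). For both genes the groups overlapped and Chow 3 was the highest library by count. Camp, the gene of the secondary granule peptide cathelicidin, had 20 to 33 counts in FFC and 22 to 26 in Chow (0.68, adjusted p = 0.13).

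Several genes of surface receptors passed as higher. Itgam, an integrin chain of neutrophils, monocytes and macrophages, had 275, 351 and 178 counts in FFC, against 95, 121 and 140 in Chow, and rose by 1.63 (limma adjusted p = 0.031). Fpr1, a receptor for bacterial formyl peptides, rose by 1.47 (adjusted p = 0.039). Ly6g, the mouse neutrophil surface marker, had 147, 185 and 112 counts in FFC, against 91, 81 and 90 in Chow, and rose by 1.22 (adjusted p = 0.039). These counts were near the means of the 4 genes of other organs, 134, 158 and 129 in FFC and 99.5, 87.25 and 96 in Chow. Cxcr1 also had low counts, 154, 179 and 145 in FFC and 117, 121 and 116 in Chow. The genes of other organs had a median difference of 1.03. Csf3r, the receptor of the growth factor G-CSF, rose by 1.06 and Cxcr1, a chemokine receptor, by 0.91 (both adjusted p = 0.043). Trem1, an amplifying receptor, rose by 1.21 (adjusted p = 0.044). Under quantile normalization only Mpo and Itgam (0.97, adjusted p = 0.047) of the 18 passed. Ly6g stood at 0.43 there (adjusted p = 0.13), Fpr1 at 0.89 (adjusted p = 0.075), Csf3r at 0.39 (adjusted p = 0.11), Cxcr1 at 0.17 (adjusted p = 0.37), Trem1 at 0.43 (adjusted p = 0.23) and Mmp9 at 0.27 (adjusted p = 0.43).

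**Figure D5:**
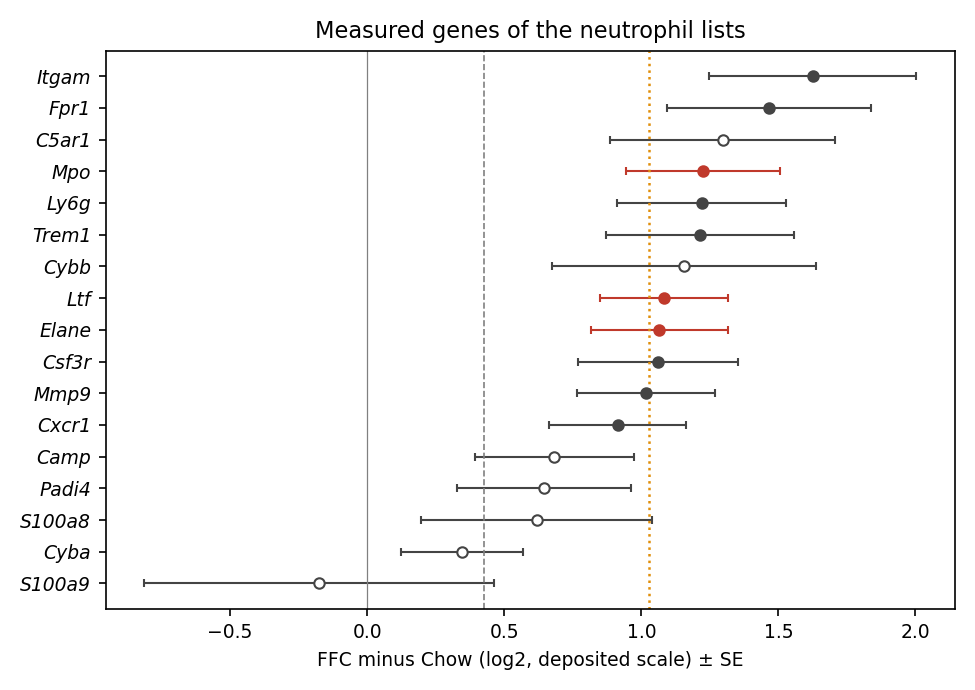
FFC minus Chow (log2, deposited scale, horizontal axis) with SE for 17 of the 18 measured genes of the neutrophil lists; red marks Mpo, Elane and Ltf, and filled points passed in limma. The dashed line is the median of all tested genes (0.43) and the dotted line the median of the 4 genes of other organs (1.03).

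Among genes of factors that attract or sustain neutrophils, 3 of 8 passed as higher and 5 did not pass, where 17.4% of all tested genes passed as higher. Those that rose in limma were Csf2, the growth factor GM-CSF, at 1.48, Hc, the complement component from which the attractant C5a is cut, at 1.23, and Ppbp, a platelet chemokine, at 0.94, and none of the 3 passed under quantile normalization (adjusted p = 0.12, 0.24 and 0.63) or after centring. The attractant genes Cxcl1 and Cxcl5 had more counts in Chow. Cxcl5 had 1021, 659 and 1201 counts in FFC, against 2579, 1914 and 1462 in Chow (-0.57, adjusted p = 0.16), and Cxcl1 differed by -0.42 (adjusted p = 0.23). In limma 0 of the 8 passed as lower, also at an unadjusted p of 0.05, while voom called Cxcl1 lower. Spi1, the gene of PU.1, whose letters stand in all 3 windows above, was the 1 granulocyte transcription factor measured and differed by 0.79 (adjusted p = 0.19), with 455, 537 and 261 counts in FFC, against 245, 346 and 402 in Chow.

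Markers of other cells were measured in the same libraries, and their counts stand beside the 17.4% of all tested genes that passed as higher. Of 10 macrophage and monocyte genes 5 passed as higher, among them C1qa (2.26, limma adjusted p = 0.027) and Fcgr4 (2.07, adjusted p = 0.024). The groups lay apart as higher for 7 of the 10 (34.4% of all tested genes), and the median difference of the list was 1.45. The list's summed level was 6133 to 15699 scaled counts in FFC and 10984 to 11484 in Chow. This sum mostly reflects the most abundant genes of the list, and C1qa and Fcgr4 are a small part of it in Chow. Of 8 mast cell, basophil and eosinophil genes 2 passed as higher (Fcer1a, 1.05, and Tpsb2, 1.06), with sums of 862 to 1325 in FFC and 511 to 776 in Chow. Of 10 T cell genes Cd3g (0.91) and Cd4 (0.79) passed as higher, of 7 B cell genes Cr2 (0.85) did, and of 6 hepatocyte genes 0 did in limma (2 at an unadjusted p of 0.05, 0 by voom). No gene of these lists had a count of 0 in any library, and the part of other cells in the differences of the granule genes was not tested.

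Across the 6 libraries many genes shared the pattern of the granule genes. By Pearson correlation of the deposited log2 values, the 5 genes most like Mpo were Tcl1, the flagellin receptor gene Tlr5, Tgfb3, Cd44 and Gmpr (each r = 1.00), and 157 genes had an r above 0.95. Tcl1 had 173, 182 and 146 counts in FFC, against 102, 120 and 114 in Chow, near those of Mpo. For Elane they included Thbd, an anticoagulant receptor of endothelium, Lbp, Fcer1a and Msrb2 (r from 0.99 to 1.00), with 139 genes above 0.95, and for Ltf they were Ifi27, Tsc2, Cdk8, Ccl19 and Crcp (r from 0.99 to 1.00), with 67. Among themselves the granule genes had r = 0.97 (Mpo and Elane), 0.95 (Mpo and Ltf) and 0.96 (Elane and Ltf), so that none was among the 5 most like another. The 6 libraries form 2 groups and all genes of a library share its scale factor, so that these values describe a pattern and are no test.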

How the data were processed

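RNA of liver CD4 T cells was extracted with a column kit, per the labels' protocols. The authors deposited log2 values for 750 genes in 6 libraries; no label states their normalization, background treatment or panel. In each library all values were whole multiples of 1 step (to within 0.02), so that counts could be recovered. Counts are of hybridised probes, and probe sequences were not used, so cross-hybridisation cannot be judged.

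Genes averaging 20 or more after back-transformation (748 of 750) entered limma 3.58.1 in R 4.3.3 with the deposited values unchanged, both groups in 1 fit and no covariate, two-sided, Benjamini-Hochberg adjusted over all of them at 0.05. Within-library values were tested with exact permutations over libraries. Gene symbols matched RefSeq GRCm38.p6 (734 current, 16 synonyms), which also gave the promoter windows. The fit was tested on simulated data. No pair of libraries held identical values. Some genes are not reported here.

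The 3 genes, the lists and the rule for named genes (the largest correlations, the nearest counts, the smallest p of each list, and a fixed set of neutrophil, T cell and other-organ genes) were chosen with earlier results of these data known. Of 40 listed genes of other organs 4 were on the panel. Alternatives were other filters, pseudocounts of 10 and 0.1, centring, quantile, cyclic loess, voom, a background floor, background subtraction, a replicate block, trend and robust eBayes, and leaving out each library. Unscaled counts and a wider list of other organs were added after the data were seen. Whether libraries of the same replicate number form pairs is not known. Their deviations from the group means correlated at 0.02, -0.22 and -0.04, which cannot exclude a shared batch.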

Additional observations from a re-analysis of the deposited data

How the results depend on the processing

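The differences of Mpo, Elane and Ltf were above 0 under all 19 alternatives, among them the 6 that leave out a library. Without 1 library they ranged from 1.07 to 1.46 for Mpo, 0.90 to 1.21 for Elane and 0.90 to 1.21 for Ltf, the genes called from 1 to 290 against 137, and the neutrophil genes called from 0 to 14 against 10 of 18. Under quantile normalization Elane (0.28) and Ltf (0.33) did not pass, with 53 genes and 2 neutrophil genes called, and under cyclic loess Elane (0.27) and Ltf (0.28) did not, with 62 and 1. With the background of the other-organ genes subtracted none of the 3 passed (1.60, 0.98 and 0.49; 22 genes and 0 neutrophil genes called). There Ltf was at the lowest allowed value in every library, so that 0.49 is the difference of the scale factors. Elane was at that value in FFC 2, FFC 3, Chow 2 and Chow 3, and its 0.98 had an SE of 1.04. With values raised to a background floor all 3 passed and 292 genes were called; Elane and Ltf were at the floor in every library, so that their 1.09 is the difference of the floor. Without scale factors Elane (0.58) and Ltf (0.59) did not pass, with 2 neutrophil genes called.

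With the replicate block the differences were as before (1.22, 1.07 and 1.08) and did not pass in limma (adjusted p = 0.15, 0.16 and 0.15). In that fit 1 gene and 0 neutrophil genes were called. The block rests on the replicate number alone, and 2 of the 3 correlations of same-numbered libraries were below 0, which does not settle whether they form pairs.

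Relative to genes of similar level in place of the other-organ genes the values were 0.53 for Mpo, 0.31 for Elane and 0.28 for Ltf, and with 9 genes of other organs they were 0.24, 0.08 and 0.10. Without 1 library the values relative to the 4 genes of other organs ranged from 0.04 to 0.27 for Mpo, -0.05 to 0.05 for Elane and -0.15 to 0.18 for Ltf. The pair differences ranged from -0.01 to 0.25 (Mpo minus Elane), -0.01 to 0.35 (Mpo minus Ltf) and -0.15 to 0.11 (Elane minus Ltf). The number of libraries, and counts near those of genes of other organs, limit the precision.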

Other observations

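Other genes known from neutrophils stood on the panel outside the lists and were picked by name after the data were seen. Of 7 such genes 3 passed as higher in FFC, with a median difference of 1.04, against 17.4% of all tested genes, 28.1% to 35.9% of those in the level ranges of the granule genes, and a median of 0.43 over all tested genes. Lilra5, an activating receptor of myeloid cells, differed by 1.09 (limma adjusted p = 0.030), Fcnb, a ficolin of neutrophil granules, by 1.04 (adjusted p = 0.048) and Ceacam3 by 0.96 (adjusted p = 0.043). Cd177, a neutrophil surface protein, averaged 97.7 counts in FFC and 80.3 in Chow (0.75, adjusted p = 0.098). Ctsc, the cathepsin that activates Elane and other granule proteases, was well expressed, at 2591 mean counts in FFC and 1580 in Chow (1.14, adjusted p = 0.051). Under quantile normalization none of the 7 passed in limma. On the deposited scale 6 of the 7 were higher at an unadjusted limma p under 0.05, and voom on the recovered counts called 3 higher. In the level ranges of Mpo, Elane and Ltf, 102 of 178, 102 of 143 and 81 of 103 genes were higher at that unadjusted p. Voom called 49, 57 and 44 genes of these ranges higher.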
